A study of Mus musculus with 10 samples.

Results

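The genes described here are 10 members of the bone morphogenetic protein (BMP) pathway, taken by their exact gene symbols from 2 RNA-seq tables, one of day 7 Sertoli cells with 17816 genes and the other of adult testis with 20007 genes. They comprise the ligand genes Bmp2, Bmp4, Bmp8a and Bmp8b, the receptor genes Bmpr1a, Bmpr1b and Bmpr2, the signal transducer genes Smad1 and Smad5, and the target gene Id1, and all 10 are present in both tables. The day 7 table holds cultured primary Sertoli cells from the mouse testis at 7 days after birth, 2 samples labelled WT, which the study's methods describe as Rnf20 Flox/Flox, and 2 samples labelled as RNF20 conditional knockout, described as Amh-Rnf20-/-. That age comes from the sample titles and the methods, while the growth field of the labels names adult tissue for all 10 samples. The adult table holds whole testis, 3 samples labelled WT and 3 labelled as RNF20 conditional knockout, with no exact age or flox allele given for them. In Amh-Rnf20-/- mice, Cre recombinase driven by the Amh promoter deletes floxed Rnf20, which encodes a ubiquitin ligase for histone H2B, in Sertoli cells, so the other testis cells are not targeted by design. The methods give 3 individuals per day 7 group, of which 2 per group were analysed here, and the labels do not say that the adult samples were separate animals, so p-values measure the spread between these samples.

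BMP ligands are secreted dimers of the TGF-beta superfamily. They bind type I receptors, among them BMPR1A and BMPR1B, together with type II receptors such as BMPR2, and the type I receptor then phosphorylates SMAD1 and SMAD5, which enter the nucleus with SMAD4 and switch on genes such as Id1. ID1 is an inhibitor of basic helix-loop-helix transcription factors, whose recognition sequence is the E-box. In the testis, BMP4 is known as a signal to spermatogonia, and Bmp8a and Bmp8b are known for their expression in male germ cells and their requirement for spermatogenesis.

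Values are given as FPKM, fragments per kilobase of transcript, scaled to the mapped fragments of a sample, which allow levels of different genes to be compared, and as log2 fold changes of the knockout group against the control group, fitted to the estimated counts of all genes with TMM scaling by edgeR. A gene was tested where FPKM reached 0.5 in at least as many samples as the smaller group holds, and it was called where the Benjamini-Hochberg adjusted p-value, taken over all genes tested, was under 0.05. Total counts were between 17477268 and 17705347 per day 7 sample, and those of adult testis were between 15431912 and 16574144. Rnf20 itself read 16.6 and 16.0 FPKM in Rnf20 Flox/Flox cells and 10.3 and 12.6 FPKM in Amh-Rnf20-/- cells, a log2 fold change of -0.49 ± 0.12 that was not called (adjusted p = 0.222, edgeR). In adult testis it read between 3.32 and 4.89 FPKM in the controls, compared with between 5.76 and 9.85 FPKM in the samples labelled as knockout. With TMM scaling these groups overlapped, at a log2 fold change of 0.12 ± 0.27 (adjusted p = 0.688, edgeR), and median-ratio scaling turned it to -0.075. Library totals gave 0.97 (adjusted p = 0.0168), and limma on FPKM, which rests on the same totals, also called Rnf20 higher. A lower Rnf20 transcript level in whole testis was thus not detected under any of these scalings.

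The make-up of the samples differed between the groups. At day 7, 9 of 14 Sertoli cell markers were lower in both Amh-Rnf20-/- samples than in both controls and 1 was higher, with the list's summed FPKM between 1430 and 1603 in the controls, compared with between 827 and 1173 in the Amh-Rnf20-/- samples. The sex-determining factor gene Sox9 read 41.8 and 39.4 FPKM in the controls but 10.2 and 25.7 FPKM in the Amh-Rnf20-/- samples. All 7 peritubular myoid cell markers and all 6 stromal fibroblast markers were higher in both Amh-Rnf20-/- samples. The smooth muscle actin gene Acta2 read 1097 and 1058 FPKM in the controls against 2134 and 2091 FPKM in the Amh-Rnf20-/- samples, and the collagen gene Col1a1 read 1011 and 1046 FPKM against 1718 and 1464 FPKM. The Leydig cell sum was between 149.1 and 155.7 FPKM in the controls, compared with between 205 and 301 FPKM in the Amh-Rnf20-/- samples, with the steroidogenic gene Cyp17a1 at 0 to 0.18 FPKM and the hormone gene Insl3 at 9.45 to 24.6 FPKM over the 4 samples. Of the 9 spermatogonium markers tested, 8 were lower in both Amh-Rnf20-/- samples, and the sum of the list was between 202.9 and 210.2 FPKM in the controls, compared with between 140.7 and 145.2 FPKM. The germ cell gene Ddx4 read 5.48 and 6.93 FPKM in the controls against 3.70 and 4.12 FPKM, and the spermatid gene Tnp1 was at 0 to 0.37 FPKM. In adult testis, all 12 spermatid markers fell, from a summed 126672 to 195862 FPKM in the controls to 4.67 to 97.0 FPKM, and all 6 Leydig cell markers and all 7 macrophage markers rose, with the Leydig sum going from 3997 to 5602 FPKM up to 63070 to 87434 FPKM. Replicate 1 of the adult samples labelled as knockout stands apart from the rest of its group. It held 0.93 FPKM of Ddx4 against 21.4 and 33.6 FPKM, 0.80 FPKM of the meiotic gene Sycp3 against 42.5 and 72.4 FPKM, and 1.2 FPKM of Sox9 against 9.86 and 12.7 FPKM. In such bulk samples, fewer cells of a type and less RNA per cell cannot be told apart.

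The ligand genes Bmp8a and Bmp8b need care because they are close paralogs. Bmp8a, on the minus strand at chr4:123312645-123343252, and Bmp8b, on the plus strand at chr4:123104308-123126094 (RefSeq on GRCm38.p6), have coding sequences of 1197 bases each that are 88.0% identical. The longest run they share is 182 bases, at positions 451 to 632 of both coding sequences, and spans exons 2 and 3 of 7 (GENCODE vM21 transcripts). It is shown because a read lying wholly within it fits both genes equally well.

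Bmp8a and Bmp8b shared run: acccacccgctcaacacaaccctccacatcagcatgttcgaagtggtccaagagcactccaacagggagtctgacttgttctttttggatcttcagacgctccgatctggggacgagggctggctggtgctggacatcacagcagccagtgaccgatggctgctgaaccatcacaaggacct

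Of all windows of 100 bases in either coding sequence, 9.93% are identical in the other gene, and the share is 3.15% for windows of 150 bases. Counts of the pair were whole numbers (to within 1e-09) in 9 of 10 samples, and in the other, replicate 1 of Rnf20 Flox/Flox, they were 12.23 for Bmp8a and 53.77 for Bmp8b, which add up to 66 reads. Values of the 2 genes are therefore partly uncertain against each other.

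Promoter sequences of 300 bases, from 250 bases before to 50 bases after a RefSeq start on GRCm38.p6, were given for 8 of the 10 genes in 12 entries. Bmp2 and Id1 had no entry. The sequences of the ligand gene and the receptor genes whose level rose most clearly in adult testis are shown 5′ to 3′ on the strand of the gene, with capitals marking GGCGCC, a GC-rich sequence known to be bound by SMAD1 and SMAD5, and the E-box CANNTG. Both read the same on either strand. The Bmp4 promoter lies on the minus strand at chr14:46390620-46390919, that of Bmpr1a on the minus strand at chr14:34502497-34502796, and that of Bmpr2 on the plus strand at chr1:59764029-59764328.

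Bmp4 promoter: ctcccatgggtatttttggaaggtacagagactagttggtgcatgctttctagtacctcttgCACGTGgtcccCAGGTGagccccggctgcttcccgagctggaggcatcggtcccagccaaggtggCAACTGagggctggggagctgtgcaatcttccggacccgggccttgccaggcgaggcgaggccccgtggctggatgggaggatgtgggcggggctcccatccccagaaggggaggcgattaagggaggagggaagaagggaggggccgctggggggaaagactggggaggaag

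Bmpr1a promoter: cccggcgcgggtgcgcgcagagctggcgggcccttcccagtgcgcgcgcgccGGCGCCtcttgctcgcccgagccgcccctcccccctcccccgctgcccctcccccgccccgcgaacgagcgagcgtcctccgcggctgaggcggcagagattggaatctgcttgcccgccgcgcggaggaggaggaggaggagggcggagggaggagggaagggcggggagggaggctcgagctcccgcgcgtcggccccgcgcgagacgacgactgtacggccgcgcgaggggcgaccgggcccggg

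Bmpr2 promoter: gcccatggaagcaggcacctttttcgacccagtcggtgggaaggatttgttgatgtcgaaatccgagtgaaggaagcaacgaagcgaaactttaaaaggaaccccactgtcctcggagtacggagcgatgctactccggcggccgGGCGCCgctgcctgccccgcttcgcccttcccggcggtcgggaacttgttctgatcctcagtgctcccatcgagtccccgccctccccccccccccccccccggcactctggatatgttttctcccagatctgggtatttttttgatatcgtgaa

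The Bmp4 window holds 3 E-boxes and no GGCGCC, and the Bmpr1a and Bmpr2 windows each hold 1 GGCGCC and no E-box. Among the members, GGCGCC occurs in 4 of the 12 entries, from 3 of the 8 genes, Smad5 being the third, while 11.9% of 32851 promoter entries of the genome hold it. An E-box occurs in 7 of the 12 entries, against 72.3% of all entries. The Smad5 windows at chr13:56702760-56703059 and chr13:56702802-56703101 overlap and hold the same GGCGCC and the same E-box, so these sites are counted in both entries. Matches of this kind describe the sequence only.

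At day 7, the ligand gene Bmp4 and the target gene Id1 had 2.39-fold and 2.36-fold higher mean FPKM in both Amh-Rnf20-/- samples, whereas the receptor genes and Smad5 had overlapping levels in the groups or, for Bmpr1b, a lower one. Of the 10 members, 9 passed the filter on low values and 0 were called by edgeR, beside 0% of the 12880 genes tested. Without adjustment, 2 members had a p-value under 0.05, Bmp4 and Id1, against 15.5% of all genes tested. DESeq2, as an alternative, called the same 2 members and 4.51% of all genes. FPKM groups did not overlap for 4 of the 9 members tested, 3 higher and 1 lower, against 50.8% of all genes tested, 19.7% higher and 31.1% lower. The lower one, Bmpr1b, passed the filter through the controls alone. For the 9 members the median log2 fold change was 0.18, where all genes tested had 0.00.

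**Figure D1:**
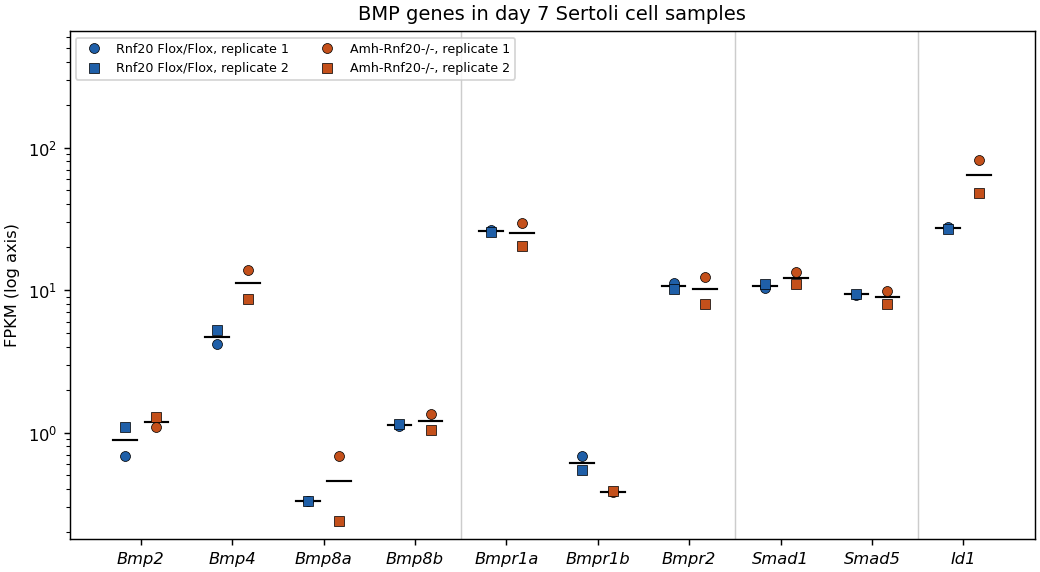
FPKM of the 10 BMP pathway genes (log axis) in 2 Rnf20 Flox/Flox and 2 Amh-Rnf20-/- samples of day 7 Sertoli cells, with one symbol per sample and a bar at the group mean. Bmp4 and Id1 lie higher in both Amh-Rnf20-/- samples, at 8.70 and 13.8 FPKM and at 47.7 and 81.5 FPKM, and Bmpr1a and Bmpr2 of the 2 groups overlap.

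Among the ligand genes at day 7, Bmp4 was the most abundant. It lies on the minus strand at chr14:46383525-46390669 and its end overlaps an antisense transcript, and since strand handling is not given in the sources used here their reads cannot be told apart. Bmp4 read 4.18 and 5.22 FPKM in the Rnf20 Flox/Flox samples and 13.8 and 8.70 FPKM in the Amh-Rnf20-/- samples, with counts of 131, 163, 431 and 273. Both Amh-Rnf20-/- samples were above both controls, and replicate 1 was the higher of the 2. The log2 fold change was 1.30 ± 0.28 (SE, n = 2 per group, adjusted p = 0.188 by edgeR), which does not pass the threshold. Leaving out Amh-Rnf20-/- replicate 1 gave 0.92 and leaving out replicate 2 gave 1.59, while leaving out a control gave 1.15 or 1.46. Such a fit leaves 1 sample in a group, whose own spread cannot be measured, so only its fold change is given. Over the alternatives with all samples, the adjusted p of Bmp4 was between 0.00555 and 0.331.

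The other ligand genes were low and their groups overlapped in FPKM, for Bmp2 only through a tie at 1.09 FPKM. On TMM-scaled counts both Amh-Rnf20-/- samples were above both controls for Bmp2. Bmp2, a ligand gene at chr2:133552159-133562896, read 0.69 and 1.09 FPKM in the controls against 1.09 and 1.29 FPKM in the Amh-Rnf20-/- samples, and its log2 fold change was 0.46 ± 0.30 (adjusted p = 0.527, edgeR). Bmp8b read 1.12 and 1.15 FPKM against 1.36 and 1.04 FPKM, with a log2 fold change of 0.18 ± 0.27 (adjusted p = 0.788, edgeR). Bmp8a read 0.33 and 0.33 FPKM against 0.68 and 0.24 FPKM, on counts of 9 to 25, and did not pass the filter. Of the pair, Bmp8b took between 73.4% and 84.7% of the counts in the 4 samples, and the log2 ratio of Bmp8b to Bmp8a had a group difference of -0.20 (two-sided exact permutation test, p = 1.0, n = 2 per group, where the smallest possible p is 0.33).

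The receptor genes Bmpr1a and Bmpr2 had overlapping groups at day 7, and Bmpr1b did not. Bmpr1a, at chr14:34411061-34503336, encodes a type I receptor, and the gene overlaps an antisense transcript. It read 26.2 and 25.6 FPKM in the controls against 29.5 and 20.5 FPKM in the Amh-Rnf20-/- samples. The controls lay between the 2 Amh-Rnf20-/- samples, and the log2 fold change was -0.01 ± 0.19 (adjusted p = 0.982, edgeR). Bmpr2, the type II receptor gene at chr1:59764279-59878081, had the same arrangement with 11.2 and 10.2 FPKM against 12.4 and 7.93 FPKM, a log2 fold change of -0.03 ± 0.23 (adjusted p = 0.961, edgeR). Both receptor genes turned sign with the sample left out. Bmpr1a was -0.30 without Amh-Rnf20-/- replicate 1 and 0.22 without replicate 2, and Bmpr2 was -0.39 and 0.25. Bmpr1b, a second type I receptor gene at chr3:141837135-142169585, read 0.68 and 0.55 FPKM in the controls against 0.38 and 0.39 FPKM in the Amh-Rnf20-/- samples. Its groups did not overlap, and the log2 fold change of -0.66 ± 0.26 was not called (adjusted p = 0.334, edgeR). Only the controls reached 0.5 FPKM, so the gene passed the filter through that group alone, and its direction is a description only. Of the summed FPKM of Bmpr1a and Bmpr1b, Bmpr1a made up 97.5% and 97.9% in the controls against 98.7% and 98.1% in the Amh-Rnf20-/- samples, and its ratio to Bmpr2 was between 2.35 and 2.59 in all 4 samples.

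The SMAD genes of the pathway were expressed at similar levels to each other. Smad1, at chr8:79338395-79399428, read 10.3 and 11.0 FPKM in the controls against 13.3 and 11.1 FPKM in the Amh-Rnf20-/- samples. Both Amh-Rnf20-/- samples were above both controls by a narrow margin, and the log2 fold change was 0.24 ± 0.13 (adjusted p = 0.449, edgeR). It was 0.36 without Amh-Rnf20-/- replicate 2, 0.10 without replicate 1, and 0.19 or 0.27 without a control. Smad5, at chr13:56703010-56742378, read 9.23 and 9.42 FPKM against 9.83 and 7.99 FPKM, and its groups overlapped with a log2 fold change of -0.03 ± 0.13 (adjusted p = 0.936, edgeR). The ratio of Smad1 to Smad5 FPKM within a sample was 1.12 and 1.16 in the controls against 1.35 and 1.39 in the Amh-Rnf20-/- samples.

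Id1, the target gene at chr2:152736251-152737410, was the most abundant member at day 7 in both groups. It read 27.9 and 27.0 FPKM in the controls against 81.5 and 47.7 FPKM in the Amh-Rnf20-/- samples. The controls were almost equal, and the 2 Amh-Rnf20-/- samples lay above them and apart from each other. The log2 fold change was 1.28 ± 0.29 (n = 2 per group, adjusted p = 0.199, edgeR). It was 0.82 without Amh-Rnf20-/- replicate 1, 1.62 without replicate 2, and 1.31 or 1.24 without a control. Replicate 1 of the Amh-Rnf20-/- samples thus had the higher Bmp4 and Id1 level, and it was also the sample with the lower Sox9 level and the lower Sertoli marker sum. The part of cell make-up in these values was not tested.

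By level in the Rnf20 Flox/Flox cells, the order of mean FPKM was Id1, Bmpr1a, Bmpr2, Smad1, Smad5, Bmp4, Bmp8b, Bmp2, Bmpr1b and Bmp8a, in which only the neighbours Bmpr2 and Smad1 had overlapping values. In the Amh-Rnf20-/- cells, Bmp4 moved up to the fourth place, with overlapping values between neighbours in the order Smad1, Bmp4, Bmpr2 and Smad5, between Bmp8b and Bmp2, and between Bmp8a and Bmpr1b.

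A ratio within a sample does not depend on library scaling, apart from the effect of a pseudocount on low values. Each member was therefore also set against the mean log2(FPKM + 0.1) of the 14 Sertoli cell markers in the same sample, a mean that was 4.01 and 3.76 in the controls against 2.49 and 3.77 in the Amh-Rnf20-/- samples. Relative to these markers, 4 of 10 members, Bmp2, Bmp4, Smad1 and Id1, were higher in both Amh-Rnf20-/- samples, where 42.8% of all genes tested did not overlap, 41.2% being higher and 1.58% lower. When the median of the markers was used, 8 members and 86.4% of all genes did not overlap. With the mean of the markers, the difference was 1.97 for Bmp4 and 1.94 for Id1 on the log2 scale (exact two-sided permutation test, p = 0.33 for each, the smallest that n = 2 per group allows, and adjusted p = 0.833 over the 10 members). The larger part came from replicate 1, in which Id1 stood 3.86 above the marker mean, compared with 1.81 in replicate 2 and 0.79 and 0.99 in the controls. Without replicate 1, the group differences of Bmp8a, Bmpr1a, Bmpr1b, Bmpr2 and Smad5 turned negative.

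The other genes of the pathway at day 7 were described from a list of 39 genes, of which 37 are in the table and 30 were tested. None was called by edgeR. An unadjusted p-value under 0.05 was seen for 11 of the 30, against 15.5% of all genes tested, and DESeq2 called 6, against 4.51% of all genes. Their median log2 fold change was 0.20, beside 0.00 for all genes tested. FPKM groups did not overlap for 17 of the 30 genes, 13 higher and 4 lower, against 50.8% of all genes tested, 19.7% higher and 31.1% lower. The higher ones include Chrdl1 and Nog, which passed the filter through the Amh-Rnf20-/- samples alone. The inhibitor of DNA binding genes shared the direction of Id1. Id3 read 37.6 and 39.4 FPKM in the controls against 109.8 and 74.6 FPKM in the Amh-Rnf20-/- samples (log2 fold change 1.30 ± 0.22, adjusted p = 0.149, edgeR), and Id2 read 23.7 and 23.9 FPKM against 44.9 and 37.2 FPKM (0.82 ± 0.13, adjusted p = 0.141, edgeR). Id4 read between 0.45 and 0.63 FPKM in the 4 samples. The inhibitory SMAD genes, which are themselves targets that dampen the signal, gave 0.81 ± 0.28 for Smad6 and 0.09 ± 0.19 for Smad7 in log2 fold change, neither called, and Smad7 turned sign under limma.

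Among the other ligands and the extracellular antagonists, which bind BMPs and keep them from their receptors, the largest positive log2 fold changes at day 7 were those of the antagonist genes Chrdl1 (1.74 ± 0.45) and Nog (1.67 ± 0.44), both under 1.1 FPKM, and of the ligand gene Gdf6 (1.56 ± 0.21), which read 2.81 and 3.61 FPKM against 10.5 and 7.89 FPKM. The largest negative ones without overlap were those of Fstl3, a follistatin-like binding protein gene, at 186.8 and 176.1 FPKM against 75.1 and 121.6 FPKM (-0.85 ± 0.24), the ligand gene Bmp5 (-0.29 ± 0.25) and the type I receptor gene Acvr1 (-0.27 ± 0.09). None of these 6 was called by edgeR, with adjusted p-values between 0.132 and 0.624, and DESeq2 called Gdf6, Fstl3, Id2 and Id3 among the genes named here. For Chrdl1 and Nog only the Amh-Rnf20-/- samples reached 0.5 FPKM. They passed the filter through that group alone, and their direction is a description only.

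In adult testis, Bmp4, Bmpr1a, Bmpr2, Smad5 and Id1 rose in the samples labelled as knockout, from 3.67-fold in mean FPKM for Smad5 to 38.7-fold for Id1. Bmp2 and Bmpr1b were nearly undetected in the controls but measurable in the samples labelled as knockout, and Bmp8a and Bmp8b had lower counts there. Of the 10 members, 6 passed the filter and 5 were called, all higher, where 81.5% of the 15919 genes tested were called, 40.9% higher and 40.6% lower. The share of members called, 5 of the 6 tested, is near that background. Their median log2 fold change of 2.29 stands beside 0.01 for all genes tested. Scaling matters in this comparison, because TMM factors were between 0.711 and 0.761 in the controls, compared with between 1.27 and 1.42 in the samples labelled as knockout. With library totals, on which FPKM rests, the median of all genes was 0.87, 8613 genes were called higher and 4777 lower instead of 6503 and 6466, and the median of the 6 members was 3.15. With median-ratio scaling these medians were -0.19 and 2.09.

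**Figure D2:**
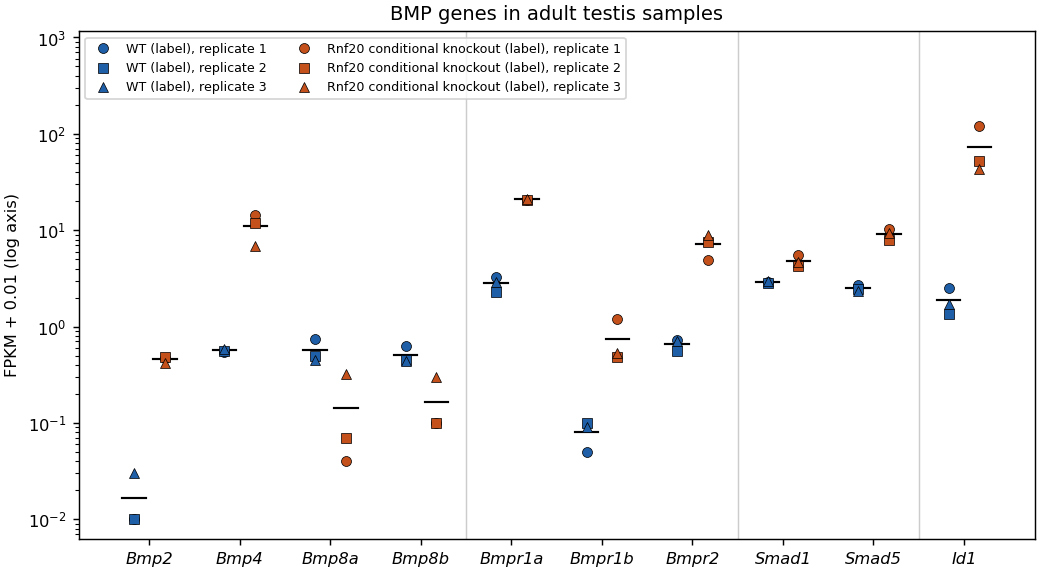
FPKM + 0.01 of the 10 genes (log axis) in 3 adult testis samples labelled WT and 3 labelled as Rnf20 conditional knockout, with one symbol per sample and a bar at the group mean. The groups do not overlap for any of the 10 genes, and only Bmp8a and Bmp8b are lower in the samples labelled as knockout.

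On FPKM, the groups were apart for all 10 members, 8 higher and 2 lower, where 87.4% of the genes tested did not overlap, 54.9% higher and 32.4% lower. The 4 members under the filter are included in this count.

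Bmp4 was at 0.54, 0.55 and 0.58 FPKM in the controls against 14.5, 11.8 and 6.92 FPKM in the samples labelled as knockout. The lowest of the latter was still far above the highest control, and the counts were 15 to 17 in the controls against 193 to 413 in the others. The log2 fold change was 3.5 ± 0.38 (n = 3 per group, adjusted p = 0.00026, edgeR), with 4.34 under library totals and 3.31 under median-ratio scaling. Over the samples left out in turn it was between 3.35 and 3.85.

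Bmp2 had 0, 0 and 1 counts in the controls against 24, 25 and 21 counts in the samples labelled as knockout, or 0 to 0.02 FPKM against 0.41 to 0.47 FPKM. It did not pass the filter. The ratio of its pooled counts was 40.0 (95% exact interval 6.95 to 1600, TMM-scaled) and 72.4 (12.6 to 2900) with library totals. These intervals cover counting error only.

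Bmp8a and Bmp8b were the members with the opposite direction. Bmp8a read 0.74, 0.49 and 0.44 FPKM in the controls against 0.03, 0.06 and 0.31 FPKM in the samples labelled as knockout, from 15 to 26 counts against 1 to 10. Bmp8b read 0.62, 0.44 and 0.43 FPKM against 0.09, 0.09 and 0.29 FPKM, from 23 to 35 counts against 4 to 12. Replicate 3 of the samples labelled as knockout had the highest value of its group for both genes, and it also had the highest Ddx4 and Sycp3 levels of that group. Neither gene passed the filter; when all genes were fitted without a filter, where 70.5% were called, the log2 fold changes were -2.89 ± 0.77 for Bmp8a (adjusted p = 0.0134, edgeR) and -2.78 ± 0.54 for Bmp8b (adjusted p = 0.00339, edgeR). The log2 ratio of Bmp8b to Bmp8a had a group difference of 0.37 (two-sided exact permutation test, p = 0.2, n = 3 per group).

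Each of these 2 genes hosts a testis-expressed gene on the same strand within its intron 3, Oxct2a at chr4:123321875-123323679 in Bmp8a and Oxct2b at chr4:123116248-123118000 in Bmp8b, with no exonic overlap. Both encode germ cell forms of an enzyme that breaks down ketone bodies, and they were named after their values were seen. Oxct2a read 174.0, 178.9 and 170.7 FPKM in the adult controls and 0, 0.21 and 0.08 FPKM in the samples labelled as knockout, and Oxct2b read 180.9, 198.0 and 182.7 FPKM against 0, 0.36 and 0 FPKM. Whether reads from these genes enter the counts of their hosts was not tested.

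Of the receptor genes, Bmpr1a rose from 3.28, 2.26 and 2.89 FPKM to 20.6, 20.8 and 21.1 FPKM. The samples labelled as knockout were almost identical to each other in Bmpr1a. They differed widely in germ cell and Sertoli cell markers, and the part of cell make-up in the Bmpr1a level was not tested. The log2 fold change was 2.03 ± 0.15 (adjusted p = 6.84e-05, edgeR), with 2.88 under library totals and 1.83 under median-ratio scaling. Bmpr2 rose from 0.72, 0.55 and 0.70 FPKM to 4.88, 7.45 and 9.01 FPKM, a log2 fold change of 2.56 ± 0.23 (adjusted p = 0.000126, edgeR), and replicate 1 was the lowest of the samples labelled as knockout. Bmpr1b read 0.04, 0.09 and 0.08 FPKM on 3 to 7 counts in the controls against 1.2, 0.47 and 0.52 FPKM on 40 to 94 counts in the others. It did not pass the filter, and the fit without a filter gave 2.67 ± 0.60 (adjusted p = 0.00651, edgeR). Bmpr1a made up between 96.2% and 98.8% of the summed FPKM of Bmpr1a and Bmpr1b in the controls, compared with between 94.5% and 97.8% in the samples labelled as knockout. The ratio of Bmpr1a to Bmpr2 was 4.56, 4.11 and 4.13 in the controls against 4.22, 2.79 and 2.34 in the samples labelled as knockout, so the groups overlapped through replicate 1.

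The 2 SMAD genes differed from each other in adult testis. Smad5 rose from 2.69, 2.44 and 2.31 FPKM to 10.2, 7.84 and 9.25 FPKM, a log2 fold change of 1.05 ± 0.16 (adjusted p = 0.00102, edgeR). Smad1 read 2.92, 2.84 and 2.93 FPKM in the controls against 5.46, 4.24 and 4.70 FPKM in the samples labelled as knockout. Its direction depended on the scaling, with a log2 fold change of -0.12 ± 0.18 under TMM (adjusted p = 0.553, edgeR), -0.32 under median-ratio scaling and 0.73 (adjusted p = 0.00676) under library totals. The ratio of Smad1 to Smad5 within a sample, which no scaling moves, was 1.09, 1.16 and 1.27 in the controls against 0.53, 0.54 and 0.51 in the samples labelled as knockout, without overlap. This ratio was chosen after the values were seen and is given as a description.

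Id1 had the largest fold change of the 6 tested members in adult testis. It read 2.53, 1.35 and 1.71 FPKM on 15 to 30 counts in the controls against 120.8, 52.1 and 43.5 FPKM on 467 to 1339 counts in the samples labelled as knockout. Replicate 1, which held the fewest germ cell transcripts, was the highest, and the others were close to each other. The log2 fold change was 4.45 ± 0.56 (n = 3 per group, adjusted p = 0.000503, edgeR), and it was 3.92 without replicate 1. Under library totals it was 5.27 and under median-ratio scaling 4.27.

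**Figure D3:**
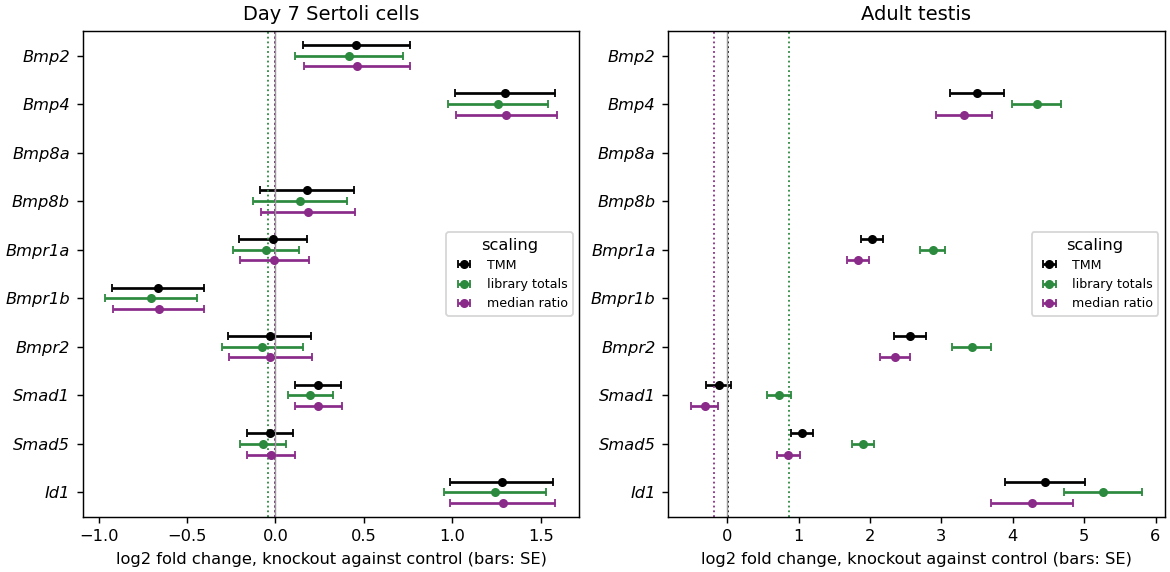
Log2 fold change with its SE for the members that passed the filter at day 7 (left) and in adult testis (right), under TMM, library-total and median-ratio scaling, with dotted lines at the median of all genes under each. The scalings nearly coincide at day 7, and in adult testis Smad1 moves from -0.12 to 0.73 between TMM and library totals.

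The order of mean FPKM in the adult controls was Smad1, Bmpr1a, Smad5, Id1, Bmpr2, Bmp4, Bmp8a, Bmp8b, Bmpr1b and Bmp2, with overlapping values between neighbours from Smad1 to Id1 and from Bmpr2 to Bmp8b. In the samples labelled as knockout it was Id1, Bmpr1a, Bmp4, Smad5, Bmpr2, Smad1, Bmpr1b, Bmp2, Bmp8b and Bmp8a, with overlapping values between neighbours from Bmp4 to Smad1, between Bmpr1b and Bmp2 and between Bmp8b and Bmp8a. Id1 thus went from the fourth place to the first, Bmp4 from the sixth, where its mean equalled that of Bmp8a, to the third, and Bmp8a and Bmp8b from above Bmp2 to below it. Levels of the day 7 table and the adult table were normalized separately and are not compared.

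These members moved together with markers of several cell types. In the adult samples labelled as knockout, the mean log2(FPKM + 0.1) of the 6 stromal fibroblast markers was higher than the control mean by 5.5, 4.6 and 4.8, that of the Leydig cell markers by 4.9, 4.7 and 4.4, and that of the spermatid markers was lower by 13, 8.8 and 9.9. The endothelial marker sum was between 2.25 and 3.08 FPKM in the controls, compared with between 25.7 and 37.5 FPKM in the others, and the macrophage sum was between 45.2 and 51.3 FPKM and between 869 and 1165 FPKM. Among defining markers, Pecam1 of endothelium read 0.14 to 0.67 FPKM and 4.66 to 9.0 FPKM, Csf1r of macrophages 1.68 to 2.42 FPKM and 57.1 to 81.9 FPKM, and Insl3 of Leydig cells 3700 to 5402 FPKM and 54592 to 80266 FPKM. The part of these cells in the levels of the members was not tested.

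**Figure D4:**
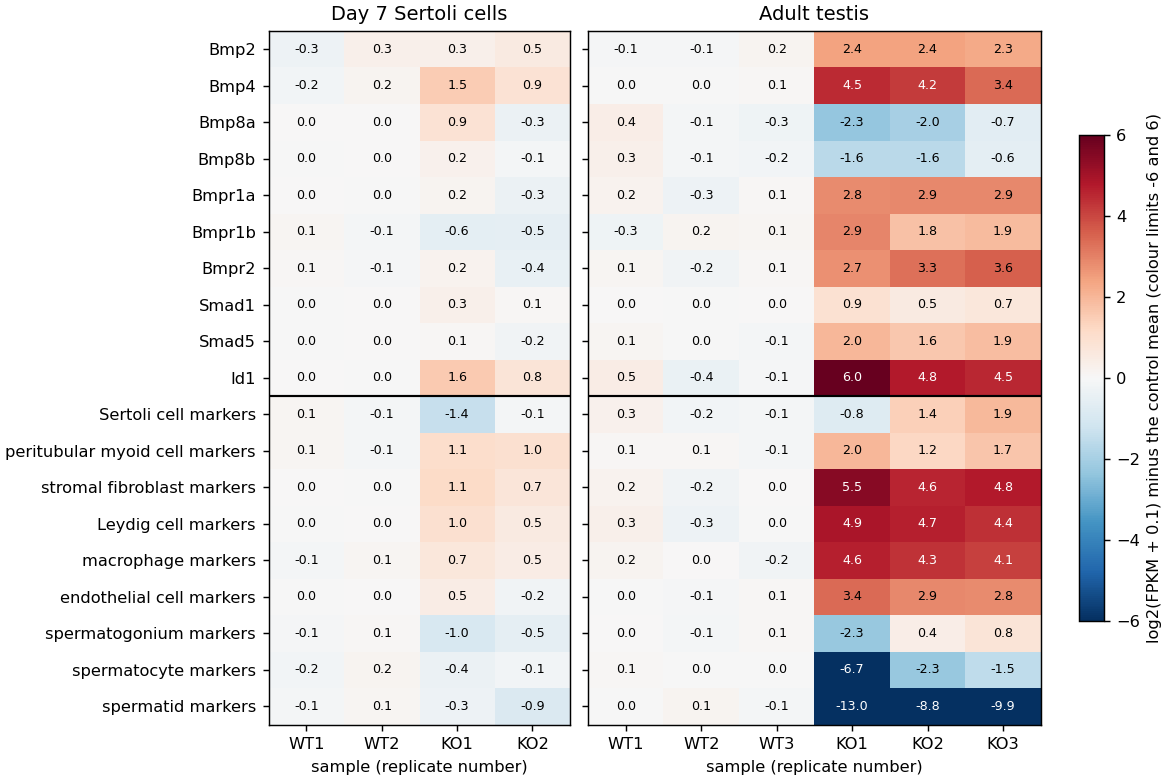
Log2(FPKM + 0.1) minus the mean of the controls (WT) for the 10 genes, above the line, and for the mean of each marker list, below it, in every sample of both tables (KO, samples labelled as knockout). In adult testis Bmp4, Bmpr1a, Bmpr2 and Id1 are positive in all 3 KO samples, as are the stromal fibroblast, Leydig, macrophage and endothelial lists, while the Sertoli list is negative in KO1 and positive in KO2 and KO3.

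Set against the Sertoli cell marker mean of the same sample, 7 of 10 members did not overlap between the adult groups, 5 higher and 2 lower, where 58.6% of all genes tested did not overlap, 29.3% in each direction. Higher were Id1 by 4.24, Bmp4 by 3.17, Bmpr2 by 2.36, Bmpr1a by 2.01 and Bmp2 by 1.51 on the log2 scale, and lower were Bmp8a by -2.51 and Bmp8b by -2.15 (exact two-sided permutation test, p = 0.1 for each, the smallest that n = 3 per group allows, and adjusted p = 0.143 over the 10 members). Bmp2, at 0 to 0.02 FPKM in the controls, depended on the pseudocount, and with a pseudocount of 1 its difference turned to -0.33, and 4 members and 51.2% of all genes did not overlap. Bmpr1b, Smad1 and Smad5 overlapped. For the 5 higher members, the highest ratio was that of replicate 1 of the samples labelled as knockout, whose marker mean was the lowest. There Id1 stood at 3.61, compared with 0.18 and -0.59 in replicates 2 and 3, so the size of these differences depends on replicate 1. The marker mean itself was 4.38, 3.94 and 3.99 in the controls against 3.31, 5.53 and 6.04 in the samples labelled as knockout, and single markers did not move as a block, since the Sertoli gene Rhox5 fell from between 16.6 and 20.8 FPKM to between 0.34 and 1.41 FPKM while Wt1 went from between 5.21 and 8.30 FPKM to between 17.9 and 46.9 FPKM.

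Of the wider list of 39 pathway genes, 37 are in the adult table and 28 were tested, of which 19 rose, 6 fell and 3 were not called, where 81.5% of all genes tested were called, 40.9% higher and 40.6% lower. Their median log2 fold change was 2.33, beside 0.01 for all genes tested and 2.29 for the members. Under library totals 21 were called higher and 4 lower. All controls of Acvrl1, Chrd, Chrdl2, Fst, Bmper and Smad7 were under 0.5 FPKM. These genes, all called higher, passed the filter through the samples labelled as knockout alone. Sostdc1 and Hjv, which fell, reached the needed number of samples through the controls. The direction of these genes is a description only, and the counts and the median above include them. By role, 5 of 8 other receptors and co-receptors rose and 2 fell (one of them, the type II receptor gene Acvr2a, fell under TMM but was above the controls in FPKM in all 3 samples), 9 of 12 tested antagonists and binding proteins rose and 2 fell, and 1 of 2 tested other ligands rose, the other, Bmp7, being called lower under TMM with overlapping FPKM groups.

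**Figure D5:**
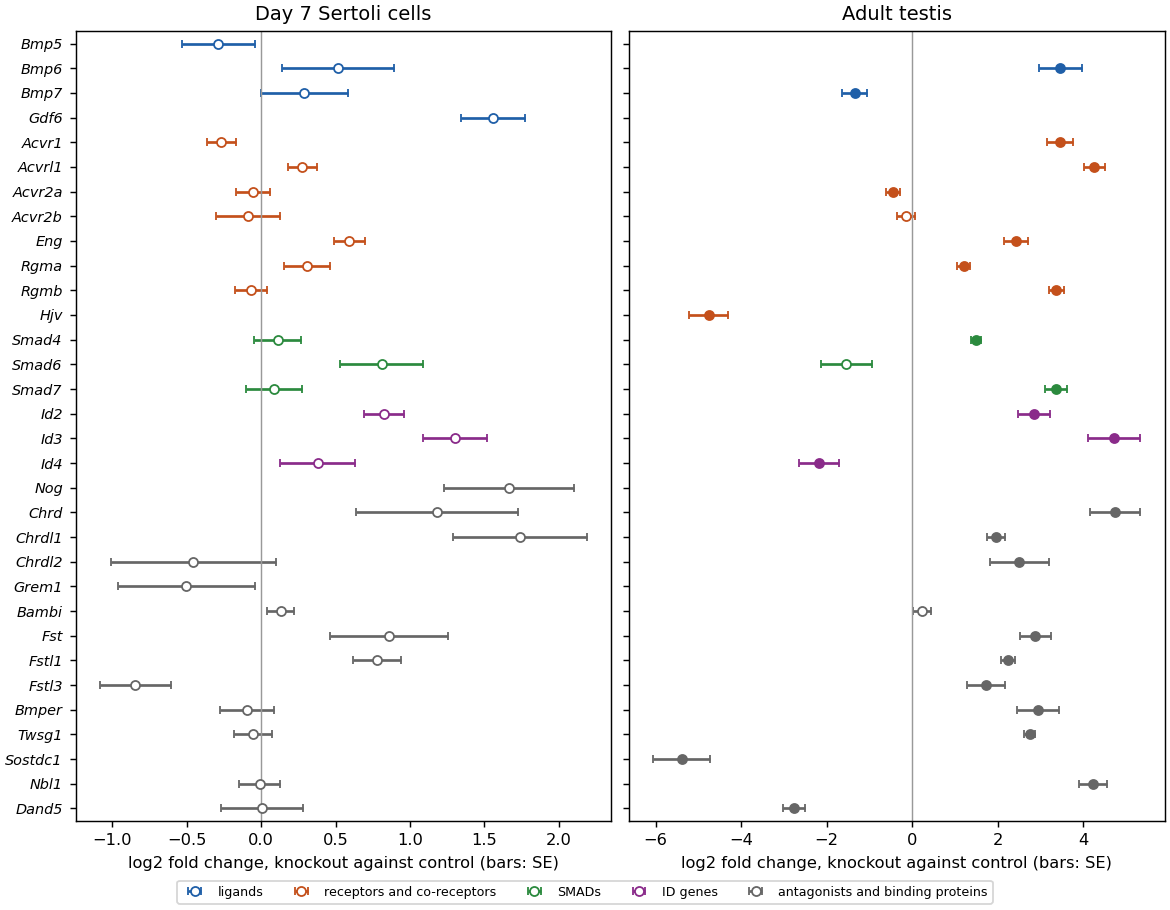
Log2 fold change with its SE for the tested genes of the wider BMP pathway list at day 7 (left) and in adult testis (right), coloured by role, with filled symbols for called genes and open symbols for the rest. No gene is filled at day 7, and in adult testis 19 filled symbols lie above 0 and 6 below.

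The largest rises among these genes in adult testis were those of Chrd, Id3 and Acvrl1. Chrd, the gene of the antagonist chordin, rose from 0.08, 0.39 and 0.32 FPKM to 18.8, 15.02 and 7.90 FPKM (4.74 ± 0.58, adjusted p = 0.000433, edgeR). Id3 rose from 2.34, 2.37 and 2.45 FPKM to 204, 62.0 and 70.4 FPKM (4.72 ± 0.61, adjusted p = 0.000555, edgeR), and replicate 1 held its highest value, as for Id1. Acvrl1, a type I receptor gene known for its expression in endothelium, rose from 0.43, 0.40 and 0.33 FPKM to 16.2, 11.2 and 12.9 FPKM (4.26 ± 0.25, adjusted p = 3.95e-05, edgeR). All controls of Chrd and Acvrl1 were under 0.5 FPKM. Both genes passed the filter through the samples labelled as knockout alone, and their direction is a description only.

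The largest falls among them were those of Sostdc1, Hjv and Dand5. Sostdc1, which encodes a BMP and WNT antagonist, read 1.74, 1.19 and 1.44 FPKM in the controls against 0, 0.04 and 0.13 FPKM in the samples labelled as knockout (-5.39 ± 0.66, adjusted p = 0.000444, edgeR). This gene passed the filter through the controls alone, so its direction is a description only. The BMP co-receptor gene Hjv fell from 4.27, 6.02 and 4.70 FPKM to 0.14, 0.32 and 0.55 FPKM (-4.76 ± 0.46, adjusted p = 0.000174, edgeR). Dand5, a gene of the DAN family of antagonists, fell from 37.9, 43.7 and 32.9 FPKM to 13.1, 9.08 and 8.28 FPKM (-2.76 ± 0.26, adjusted p = 0.000167, edgeR).

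The ID genes did not share one direction in adult testis. Id2 rose from between 4.81 and 6.95 FPKM to between 54.7 and 115.9 FPKM (2.85 ± 0.37, adjusted p = 0.000546, edgeR), whereas Id4, known for its expression in spermatogonial stem cells, fell from 10.5, 10.8 and 12.4 FPKM to 1.56, 5.73 and 6.38 FPKM (-2.18 ± 0.48, adjusted p = 0.00549, edgeR). The lowest Id4 level was that of replicate 1, the sample with the lowest Ddx4. The inhibitory SMAD genes also differed. Smad7 rose from 0.22, 0.16 and 0.12 FPKM to 3.07, 2.43 and 2.64 FPKM (3.36 ± 0.27, adjusted p = 8.7e-05, edgeR). It passed the filter through the samples labelled as knockout alone, so its direction is a description only. Smad6 read 6.03, 7.29 and 5.0 FPKM against 6.68, 2.27 and 1.53 FPKM, with overlapping groups and a log2 fold change of -1.55 ± 0.60 just outside the threshold (adjusted p = 0.0503, edgeR). Smad6 passed it under median-ratio scaling at -1.72 (adjusted p = 0.0385), by DESeq2 (adjusted p = 0.0119), and without replicate 1 of the samples labelled as knockout at -2.36 (adjusted p = 6.08e-05), but not under library totals at -0.72 (adjusted p = 0.261).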

How the data were processed

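RNA was sequenced from day 7 Sertoli cells and adult testis from oligo(dT)-enriched libraries, on the BGISEQ platform by the study's methods. The authors used HISAT to map reads to GRCm38.p6, Bowtie2 to map them to reference genes, and obtained FPKM with RSEM; versions and strand handling are not given in the sources used here. The methods describe the day 7 samples only, and the same processing is assumed for the adult table from its column names. The deposited tables hold estimated counts, which are not normalized, the authors' FPKM, scaled by transcript length and library total, and the authors' TPM, which entered no test. A further 20 columns of the adult table hold neither values nor names and were left out.

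Estimated counts, between 10.7% and 13.2% of which were not whole per sample, were rounded. Each table was fitted alone with edgeR's quasi-likelihood test, TMM scaling and Benjamini-Hochberg adjustment over all genes tested (12880 and 15919 genes reached an FPKM of 0.5 in enough samples to fill the smaller group). The SE was computed from the fold change and its F statistic. Ratios within a sample used log2(FPKM + 0.1) and an exact two-sided permutation test. The fits were tested on simulated counts. At day 7 the fit recovered 71.0% of genes with a true absolute log2 change of 1 and 91.4% of those with 2. For adult testis these shares were 4.85% and 42.3%. False calls were 26 among 12880 genes at day 7 and 3 among 15919 genes in adult testis. The simulation gave both groups the same spread. In the real day 7 samples, chi-square per degree of freedom was 2.65 between the controls but 34.3 between the Amh-Rnf20-/- samples. The simulated shares therefore do not say which changes could be found in the real samples. Alternatives were library totals, median-ratio scaling, DESeq2, limma on log2(FPKM + 0.1) and log2(FPKM + 1), no filter, a mean FPKM of at least 1, the study's thresholds, a replicate block and each sample left out. Samples of a group differed by more than counting noise, with chi-square per degree of freedom between 2.65 and 117.9, so no sample was a repeat deposit of another, and each was counted once. This does not show that they came from separate animals.

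Besides the 10 members, the text names Rnf20, 1 or 2 markers per cell type, the ID genes, the inhibitory SMAD genes, and the 3 largest rises and 3 largest falls of the wider pathway list without overlap in FPKM, among called genes or, where under 3 were called, among tested genes. One gene of the wider list is not reported here and was left out of its counts. Other genes named were chosen after their values were seen. The members, lists and rules were chosen with earlier results of these data known. Gene positions and promoters come from RefSeq on GRCm38.p6, and coding sequences from GENCODE vM21. Tools were R 4.3.3, edgeR 4.0.16, limma 3.58.1, DESeq2 1.42.0, Python 3.11.15, numpy 2.4.6, pandas 2.3.3, scipy 1.17.1 and matplotlib 3.10.9.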

Additional observations from a re-analysis of the deposited data

Results flagged for a closer look

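Genes with opposite directions at day 7 and in adult testis, with non-overlapping groups in both tables on FPKM and on TMM-scaled counts alike, were picked out among the members and the pathway genes named by the rule in the processing section. Of the 12378 genes tested in both tables, 14.5% have such opposite directions. Bmpr1b, listed below, is not among the 12378, since it did not pass the filter in adult testis. None of the genes below was called at day 7 by edgeR, with adjusted p-values of 0.334 for Bmpr1b, 0.305 for Acvr1, 0.245 for Fstl3 and 0.530 for Id4. Values are differences of mean log2(FPKM + 0.1), knockout minus control. The tables were normalized separately, and the difference between the ages was not tested. The type I receptor gene Bmpr1b differed by -0.55 at day 7 and by 2.19 in adult testis. At day 7 only its control samples reached 0.5 FPKM, so it passed the filter through the group where it was higher, and its direction is a description only. Acvr1, another type I receptor gene, differed by -0.31 and 4.19. The binding protein gene Fstl3 differed by -0.92 and 2.40. Id4 went the other way, with 0.29 at day 7 and -1.51 in adult testis. Sertoli cell samples are set here against whole testis, so age and sample type cannot be told apart. Id4 was -1.66 in log2 fold change (adjusted p = 3.39e-06, edgeR) in adult testis without replicate 1 of the samples labelled as knockout.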

How the results depend on the processing

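In adult testis, Bmp4, Bmpr1a, Bmpr2, Smad5 and Id1 kept their direction and their call under every scaling, pseudocount, filter and tool tried and with each sample left out, except that Smad5 (adjusted p = 0.00102) missed the study's thresholds of an absolute log2 fold change above 1 and an FDR below 0.001. Those thresholds left 4 members and 7434 genes called. With no filter 9 members and 70.5% of all genes were called. Smad1 turned to 0.73 under library totals and to 0.70 and 0.57 under limma with pseudocounts of 0.1 and 1, and ranged from -0.15 to 0.01 with each sample left out. Adult Rnf20 turned to -0.075 under median-ratio scaling and under DESeq2, and was called higher under library totals and both limma settings. Relative to Sertoli cell markers, a pseudocount of 1 left 4 adult members (51.2% of all genes) without overlap and turned Bmp2 to -0.33 and Bmpr1b to -0.18, and the median of the marker list turned Smad1 to 0.23, with a range of -1.07 to 0.40 with each sample left out.

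At day 7, DESeq2 called 581 genes, 2 members and 6 other pathway genes, where edgeR called 0 of each. With each sample left out, edgeR called from 0 to 5049 genes, from 0 to 5 members and from 0 to 15 pathway genes; the high counts came from leaving out a knockout sample, after which the spread is that of the 2 close controls, and the remaining sample is assumed to vary like them. Bmp8b then ranged from -0.082 to 0.40, Bmpr1a from -0.30 to 0.22, Bmpr2 from -0.39 to 0.25, Smad5 from -0.19 to 0.11 and Smad7 from -0.17 to 0.30, and limma gave -0.011 and -0.0094 for Smad7. Relative to Sertoli cell markers, 8 members (86.4% of all genes) were without overlap with the median of the list and 4 to 10 (44.7% to 99.0% of all genes) with each sample left out, and the differences ranged from -0.22 to 2.26 for Bmp8a, -0.21 to 1.58 for Bmpr1a, -0.42 to 0.83 for Bmpr1b, -0.30 to 1.61 for Bmpr2 and -0.10 to 1.47 for Smad5. The Bmp8b to Bmp8a ratio ranged from -0.62 to 0.22.

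Same-numbered samples did not deviate together, with correlations of 0.036 at day 7 and of 0.011 to 0.025 in adult testis, so they share only a number. The replicate block called 0 genes at day 7 and 12209 in adult testis, with 0 and 5 members and 0 and 25 pathway genes. Of the named genes followed singly under the block, it changed the call of adult Smad6 alone, to -1.85 (adjusted p = 0.0384, edgeR). Adult Acvr2a and Bmp7, among others, were not followed singly. As the main fit called 19 pathway genes higher and 6 lower without Smad6, the block lost the call of a gene not followed. Low counts limit Bmp2, Bmp8a, Bmp8b and Bmpr1b in adult testis.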
